A study of Homo sapiens with 6 samples.

Results

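RNA sequencing libraries of PC-3 cells, an established human prostate carcinoma line, were used to follow the forkhead factors FOXO1 and FOXO3 and a set of genes known to respond to FoxO factors. The set names 10 genes: FOXO1, FOXO3, PIK3IP1, FBXO32, KLF9, TXNIP, ARRDC3, ARRDC4, BCL6 and GADD45B. It was selected on knowledge of FoxO-responsive genes together with the differences between SAM and control measured in these same libraries, so the values of its genes are given as a description without p-values. By gene name, 9 of the 10 were found among the 57396 genes of the count table. No row carried the name TXNIP, and its expression was not analysed here.

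The SAM group was treated with 160 µM S-adenosylmethionine (SAM), the methyl donor of most cellular methylation reactions, and the control group received PBS, both for 5 days. Each group held 3 libraries, and nothing in the labels says that they came from separate cultures, so the spread between them may be technical. The libraries held between 12020601 and 28995160 gene counts with SAM and between 9379258 and 21768273 in controls. SAM 2 and control 1 stood apart from the other libraries: CTD-2328D6.1, a locus without an assigned function, took 1.56% and 1.18% of their counts, against 0.0324 to 0.0636% in the other 4. All 7 epithelial markers examined were expressed, with summed levels of 4399.5 to 5569 CPM (counts scaled to a common library size) with SAM and 5319 to 5499.8 CPM in controls. Among them CDH1, which encodes E-cadherin, fell to 267 ± 31.7 CPM with SAM, against 365 ± 22.3 CPM in controls (SD, n = 3; edgeR adjusted p = 0.0298). Markers of androgen-dependent luminal cells summed to 15.6 to 17.4 CPM with SAM and 14.5 to 16.1 CPM in controls. Of these, KLK2 and KLK3 had no count in any library, and TMPRSS2 fell to 3.29 ± 0.577 CPM with SAM, against 5.13 ± 0.391 CPM in controls (edgeR adjusted p = 0.0493). The part of these changes in the results that follow was not tested. Leukocyte markers summed to at most 1.38 CPM with SAM and 1.41 CPM in controls. Fibroblast markers summed to 17.2 to 17.8 CPM with SAM and 17.6 to 19.1 CPM in controls, with 2 of 7 at 0 in every library. Most of this sum was COL1A1, at 16.8 ± 0.181 CPM with SAM and 17.7 ± 1.02 CPM in controls. Endothelial markers summed to 1.24 to 2.11 CPM with SAM and 1.18 to 1.86 CPM in controls.

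FoxO proteins are transcription factors that insulin and growth factor signalling holds in check. When PI3K and AKT are active, AKT phosphorylates FoxO proteins, which leave the nucleus; when the pathway is quiet, FoxO proteins enter the nucleus and turn on genes for cell cycle arrest, stress resistance, autophagy and protein breakdown. Their activity is thus set largely by phosphorylation and location, which mRNA levels do not measure.

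The promoters of the genes whose SAM and control libraries lay apart are shown first, as the stretch in which a FoxO site would be sought. FoxO proteins bind the forkhead consensus GTAAACA, or TGTTTAC when read on the other strand, and, more loosely, its core AAACA, which reads as TGTTT from the other side. RefSeq promoter sequences of GRCh38.p14 matched 9 of the 10 genes, FBXO32 being the exception, and the 250 bases before each start were searched on both strands. The stretch of PIK3IP1 (chr22:31292535-31292784, minus strand) overlaps the divergent noncoding gene PIK3IP1-AS1. PIK3IP1, KLF9 (chr9:70414658-70414907, minus strand) and GADD45B (chr19:2475877-2476121, plus strand, ended before its first exon) are printed 5′ to 3′ with forkhead cores and the E-box CACGTG in capitals.
PIK3IP1: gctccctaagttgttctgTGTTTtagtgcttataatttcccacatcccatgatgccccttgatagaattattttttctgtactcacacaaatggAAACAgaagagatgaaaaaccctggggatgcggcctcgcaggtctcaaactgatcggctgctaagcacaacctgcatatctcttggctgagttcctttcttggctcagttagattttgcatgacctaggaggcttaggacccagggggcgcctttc
KLF9: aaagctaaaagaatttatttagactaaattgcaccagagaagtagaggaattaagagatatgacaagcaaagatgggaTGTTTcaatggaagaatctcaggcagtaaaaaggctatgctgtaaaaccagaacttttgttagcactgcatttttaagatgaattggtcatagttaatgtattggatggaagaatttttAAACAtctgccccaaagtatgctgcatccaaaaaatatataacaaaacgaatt
GADD45B: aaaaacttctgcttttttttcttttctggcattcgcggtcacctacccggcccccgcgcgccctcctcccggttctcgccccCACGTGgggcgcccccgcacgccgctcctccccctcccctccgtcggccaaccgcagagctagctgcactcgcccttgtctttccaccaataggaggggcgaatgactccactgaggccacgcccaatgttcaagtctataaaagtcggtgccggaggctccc

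None of these 3 stretches held the forkhead consensus. The promoter stretches of TXNIP and ARRDC3 did, 124 and 29 bases before a start, which made 2 of 9 genes, and 3.66% of all 27305 genes in the promoter table hold it there. The ARRDC3 match belongs to a downstream start of that gene and lies inside one of its annotated exons. An additional match in PIK3IP1 lay just past its second start. The short core AAACA stood before a start of 7 of the 9 genes and of 45.5% of all genes, and includes every consensus match. The 29 bases around the consensus matches, from chr1:145996686-145996714 and chr5:91380109-91380137 (both minus strand), are given with the match in capitals.
TXNIP: tcgggctcctgGTAAACAaggaccgggca
ARRDC3: agcccggcactTGTTTACcacggcgcggc

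The E-box CACGTG is the core of the sites bound by MondoA, the glucose-sensing factor that controls TXNIP and ARRDC4. It was found before the start of ARRDC4 and GADD45B, 210 and 168 bases upstream, and in 7.73% of all genes. The E-box of ARRDC4 lies at chr15:97960493-97960498 and is shown within chr15:97960482-97960509 (plus strand), which adds 11 bases on either side.
ARRDC4: aacggcctgtgCACGTGcacgccggagc
A full carbohydrate response element, the paired form of this site, was matched in TXNIP alone among the 9 and in 0.527% of all genes. The insulin response sequence CAAAACAA and the BCL6 core TTCCTAGAA were matched in none of the 9, against 1.81% and 0.396% of all genes, although BCL6 itself carried its own core just past its start, in the window that runs 50 bases into the transcript. The amino acid response motif TGATGNAA was likewise matched in none before the start, against 3.89% of all genes, and the glucocorticoid response element in TXNIP alone, against 0.399%. These matches are letters only and say nothing on binding in these cells.

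**Figure D1:**
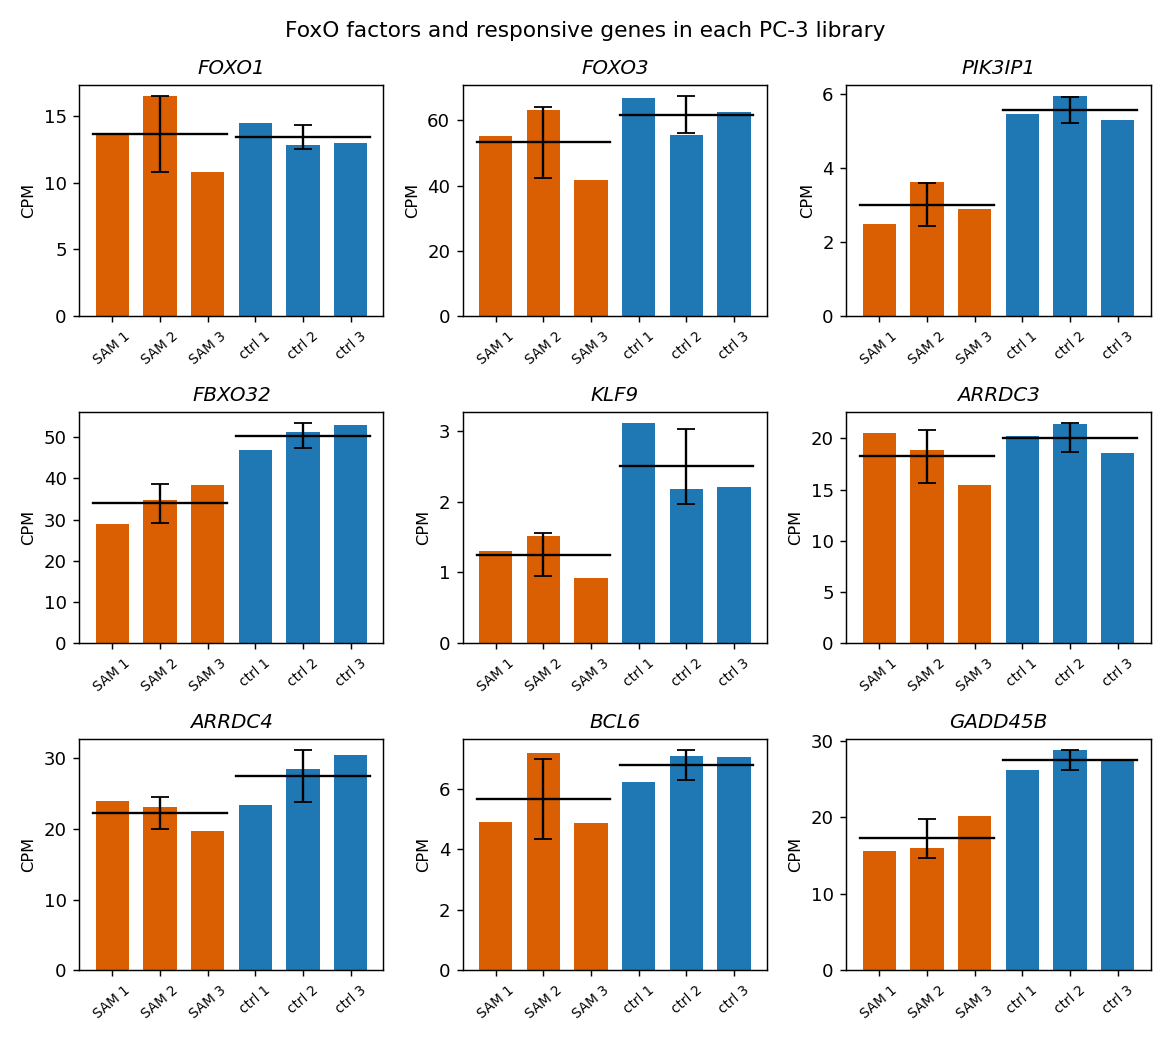
Level of each gene in every library, in CPM on linear axes from 0, with SAM libraries in orange and controls (ctrl) in blue; the black line is the group mean and the bar its SD (n = 3). In PIK3IP1, FBXO32, KLF9 and GADD45B every SAM library lies below every control library, and in the other 5 genes the groups overlap.

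The transcripts of the factors themselves did not separate the groups. Levels are CPM after TMM scaling, and positions are those of the count table, which match GRCh38. Whether a level reflects fewer expressing cells or less RNA per cell cannot be told apart in bulk libraries. FOXO1 (ENSG00000150907, chromosome 13, positions 40555667 to 40666597), which drives gluconeogenic and growth arrest genes, had 13.6, 16.5 and 10.8 CPM in SAM 1 to 3, against 14.5, 12.9 and 13.0 CPM in control 1 to 3. The SAM libraries thus lay on both sides of the controls, and the log2 fold change was 0.02 (SE 0.16). FOXO3 (ENSG00000118689, chromosome 6, positions 108559835 to 108684774), the family member most tied to stress resistance and longevity, had 55.0, 63.2 and 41.6 CPM with SAM, against 66.9, 55.6 and 62.6 CPM in controls, a log2 fold change of -0.21 (SE 0.15). The groups overlapped here too, with SAM 3 the lowest library. FOXO3B, a processed copy of FOXO3 on chromosome 17, took 3.67 to 3.86% of the counts of both together with SAM and 4.08 to 4.73% in controls. How reads shared by the copies were divided was not stated.

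Per kilobase of the longest GENCODE transcript, FOXO3 was the most abundant FoxO transcript, at 7.29 CPM per kb with SAM and 8.44 CPM per kb in controls. FOXO4 followed with 5.57 CPM per kb with SAM and 6.29 in controls, then FOXO1 with 2.36 with SAM and 2.32 in controls. FOXO6 was lowest, at 0.767 CPM per kb with SAM and 0.922 in controls. FOXO3 and FOXO4, neighbours in this order, met in the SAM group, where the lowest FOXO3 library and the highest FOXO4 library both had 5.69 CPM per kb, and lay apart in controls, at 7.61 or more for FOXO3 and 6.35 or less for FOXO4. The other neighbours did not overlap in either group. FOXO4, a further AKT substrate, had 20.7, 19.6 and 20.5 CPM with SAM, against 22.5, 23.2 and 23.1 CPM in controls. These groups did not overlap, but the difference was small and did not pass the test over all genes (log2 fold change -0.18, SE 0.09, edgeR adjusted p = 0.226). FOXO6 did not pass either (log2 fold change -0.28, SE 0.23, adjusted p = 0.434). The ratio of FOXO1 to FOXO3 per kb, which does not depend on library scaling, was 0.312, 0.330 and 0.329 with SAM, against 0.274, 0.292 and 0.262 in controls. All 3 SAM ratios lay above the 3 control ratios. How often the ratios of other gene pairs separate the groups in this way was not tested, so nothing is read from it. FOXO1 had 135 to 394 counts per library.

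**Figure D2:**
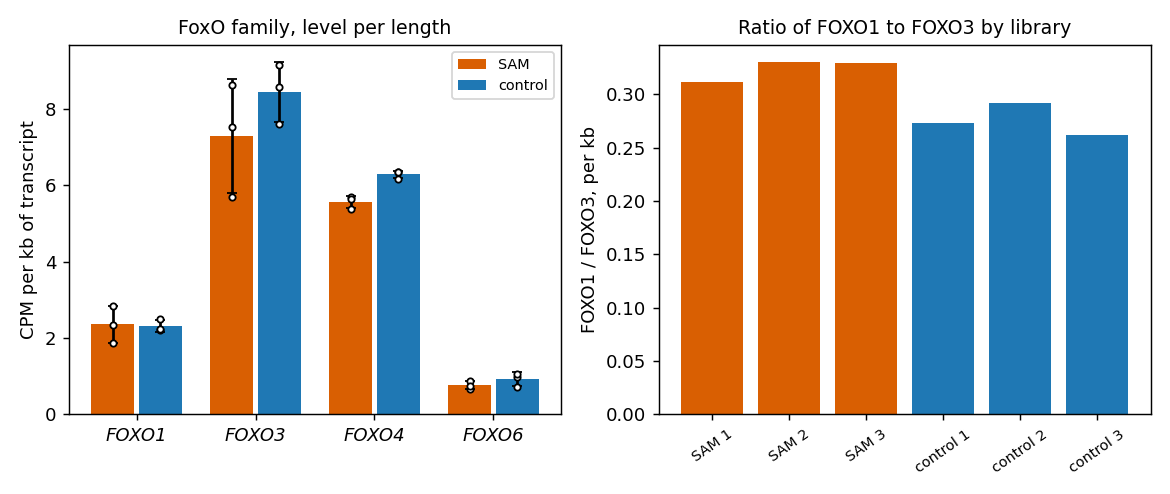
Left, level of the 4 FoxO transcripts in CPM per kb of the longest transcript, with SAM (orange) left of control (blue), bars for the mean, error bars for the SD and open circles for the 3 libraries; right, the ratio of FOXO1 to FOXO3 per kb in each library. FOXO3 averages 7.29 CPM per kb with SAM and 8.44 in controls, and the ratio lies between 0.312 and 0.330 with SAM and between 0.262 and 0.292 in controls.

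Across the responsive genes, 4 of the 9 passed the threshold of the fit over all genes (edgeR's quasi-likelihood test, Benjamini-Hochberg adjusted p under 0.05) as lower with SAM and the other 5 did not pass. In that fit 5.24% of 15312 tested genes were lower and 5.19% higher. The same 4 genes had groups without overlap, as had 18.8% of tested genes with SAM below control and 17.9% with SAM above. Since the set was listed with this comparison known, nothing is read from these counts. All 9 passed the filter on low counts.

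KLF9 (ENSG00000119138, chromosome 9, positions 70384597 to 70414624), a zinc finger repressor induced by glucocorticoids, thyroid hormone and FoxO, stood lowest relative to controls. It had 1.31, 1.52 and 0.924 CPM in SAM 1 to 3, against 3.11, 2.18 and 2.20 CPM in control 1 to 3, a log2 fold change of -0.95 (SE 0.25). These levels rest on 38, 18 and 14 counts with SAM and on 29, 48 and 45 counts in controls, the fewest of any gene of the set. PIK3IP1 (ENSG00000100100, chromosome 22, positions 31281593 to 31292534), a membrane protein that binds the catalytic subunit of PI3K and restrains it, had 2.48, 3.64 and 2.90 CPM with SAM, against 5.47, 5.95 and 5.29 CPM in controls. Its mean with SAM was 0.540 times the control mean, a log2 fold change of -0.93 (SE 0.18), and the highest SAM library lay 1.45-fold below the lowest control. The antisense gene PIK3IP1-AS1 overlaps its first exon and held 6 counts in all, 1.34% of those of PIK3IP1.

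GADD45B (ENSG00000099860, chromosome 19, positions 2476122 to 2478259), a stress-induced protein that binds the kinase MAP3K4 and takes part in G2/M arrest, had 15.6, 16.0 and 20.2 CPM with SAM, against 26.2, 28.7 and 27.5 CPM in controls (log2 fold change -0.67, SE 0.12). SAM 1 and SAM 2 were close to each other and SAM 3 was nearer to the controls. FBXO32 (ENSG00000156804, chromosome 8, positions 123497889 to 123541206), the muscle atrophy F-box protein atrogin-1 that targets proteins to the proteasome, had 28.9, 34.8 and 38.3 CPM with SAM, against 47.0, 51.3 and 52.8 CPM in controls (log2 fold change -0.58, SE 0.11). Here too SAM 1 was lowest and SAM 3 nearest to the controls. Control libraries varied little in both genes, with SDs of 1.29 CPM for GADD45B and 3.03 CPM for FBXO32.

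The alpha-arrestins, which link membrane proteins to NEDD4-family ubiquitin ligases, showed smaller differences. ARRDC4 (ENSG00000140450, chromosome 15, positions 97960698 to 97973838), a regulator of glucose uptake like TXNIP, had 23.9, 23.1 and 19.7 CPM with SAM, against 23.4, 28.5 and 30.5 CPM in controls (log2 fold change -0.31, SE 0.12). Control 1 lay between SAM 1 and SAM 2, and the overlap rested on that library. ARRDC3 (ENSG00000113369, chromosome 5, positions 91368724 to 91383359), an adaptor for the beta-2 adrenergic receptor and for integrin beta-4 in breast cancer cells, had 20.5, 18.9 and 15.4 CPM with SAM, against 20.3, 21.4 and 18.6 CPM in controls (log2 fold change -0.13, SE 0.13). BCL6 (ENSG00000113916, chromosome 3, positions 187721377 to 187745727), a transcriptional repressor best known from germinal centre B cells, had 4.89, 7.19 and 4.89 CPM with SAM, against 6.22, 7.08 and 7.05 CPM in controls (log2 fold change -0.30, SE 0.18). SAM 2 was the highest of all 6 libraries for BCL6, as it was for FOXO1, while SAM 1 and SAM 3 were below every control.

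No library was lowest throughout. SAM 3 was the lowest library for 6 of the 9 genes (FOXO1, FOXO3, KLF9, ARRDC3, ARRDC4 and BCL6), and SAM 1 for the remaining 3, PIK3IP1, FBXO32 and GADD45B. SAM 2 was the highest SAM library for 5 genes. With 1 library left out, the log2 fold change ran from -1.06 to -0.79 for KLF9, from -1.07 to -0.78 for PIK3IP1, from -0.80 to -0.60 for GADD45B and from -0.68 to -0.47 for FBXO32. FOXO1 ran from -0.12 without SAM 2 to 0.16 without SAM 3, and FOXO3 from -0.34 to -0.06 between the same fits. ARRDC3 ran from -0.23 without SAM 1 to -0.01 without SAM 3, BCL6 from -0.48 without SAM 2 to -0.19 without SAM 1, and ARRDC4 from -0.41 without control 1 to -0.23 without control 3. Without SAM 1, control 2 or control 3, 0 of the 9 genes passed the threshold, and without control 1 GADD45B alone did. Without SAM 3, and without SAM 2 and control 1 together, KLF9 was the one of the 4 that no longer passed.

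**Figure D3:**
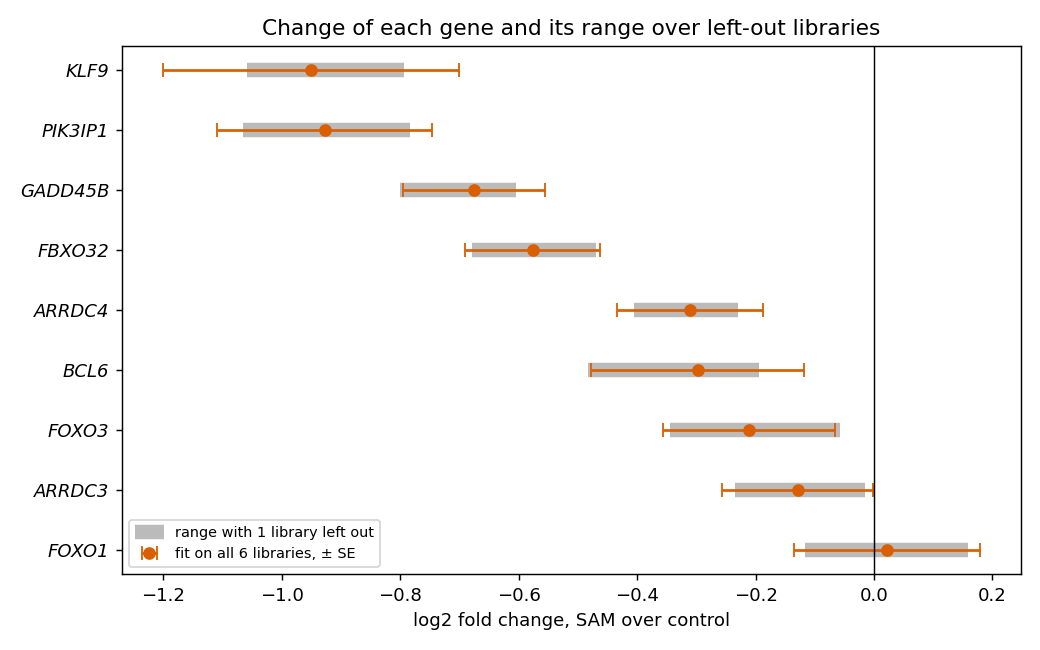
Log2 fold change of SAM over control for each gene (horizontal axis), with orange points and bars for the fit on all 6 libraries and its SE and grey bands for the range when 1 library is left out. KLF9 at -0.95 and PIK3IP1 at -0.93 lie farthest from 0, and the band of FOXO1, from -0.12 to 0.16, spans 0.

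The 5 genes whose profile over the 6 libraries was most like that of FOXO1, by the root mean square difference of centred log2 CPM among 11001 genes, were PCNT (0.04), SNTB2 (0.04), RAB3B (0.05), ZC3HAV1 (0.05) and URB1 (0.05). PCNT, which encodes the centrosome scaffold pericentrin, had 61.5, 75.4 and 50.5 CPM with SAM, against 63.3, 58.4 and 56.2 CPM in controls, with the same high SAM 2 and low SAM 3. Genes of the set were not among the nearest: FOXO3 ranked 749 of 11001 (0.13), ARRDC3 1784 (0.16), BCL6 3642 (0.21) and ARRDC4 5820 (0.25). FBXO32, GADD45B and PIK3IP1 ranked from 10178 to 10724 (0.39 to 0.48). KLF9, whose level was too low for it to be among the 11001, differed from FOXO1 by 0.49. FOXO1 had nearly equal group means, so the distance of these genes from it restates that they were lower with SAM.

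Other textbook FoxO targets were then examined, 65 genes outside the set, of which 56 were tested. This list and those that follow were written with earlier results of these data known. Their counts, shares and adjusted p are thus a description, and nothing is read from the comparison with all tested genes. Of these, 10 were lower with SAM, 1 was higher and 45 did not pass, with a median log2 fold change of -0.14. In percent, 17.9% were lower and 1.79% higher, against 5.24% and 5.19% of all tested genes. Among growth arrest and DNA damage targets 4 of 16 fell and 1 rose. CCNG2, an unconventional cyclin that slows the cycle, fell to 21.7 ± 2.53 CPM with SAM, against 37.4 ± 1.61 CPM in controls (SD, n = 3; log2 fold change -0.78, SE 0.11, edgeR adjusted p = 0.00444). CDKN2B, the CDK4 and CDK6 inhibitor p15, fell to 53.3 ± 8.89 CPM with SAM, against 93.1 ± 2.54 CPM in controls (adjusted p = 0.00682). RBL2, the pocket protein p130 of quiescent cells, fell to 35.4 ± 5.86 CPM with SAM, against 51.7 ± 1.33 CPM in controls (adjusted p = 0.0223). CDKN1B, the CDK inhibitor p27 and the best known arrest target of FoxO, fell to 17.1 ± 2.47 CPM with SAM, against 24.4 ± 0.966 CPM in controls (adjusted p = 0.0286). The rise was PLK1, a mitotic kinase, at 109 ± 5.47 CPM with SAM and 84.3 ± 7.30 CPM in controls (adjusted p = 0.0479). CDKN1A, the inhibitor p21, had 76.6 ± 2.85 CPM with SAM and 80.7 ± 5.56 CPM in controls and did not pass (adjusted p = 0.609). Nor did GADD45A, the sister gene of GADD45B, with 56.0 ± 1.58 CPM with SAM and 56.5 ± 3.15 CPM in controls (log2 fold change -0.02, SE 0.09, adjusted p = 0.925).

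The remaining calls came from other functions of FoxO. Among metabolic and antioxidant targets 3 of 15 fell. PDK4, a kinase that closes pyruvate dehydrogenase in fasting, fell to 8.0 ± 2.09 CPM with SAM, against 14.0 ± 0.737 CPM in controls (log2 fold change -0.80, SE 0.18, adjusted p = 0.0262), and the insulin receptor INSR and the pseudokinase TRIB1 fell by 0.48 and 0.42 on the log2 scale. Autophagy and protein breakdown targets fell in 2 of 16. These were GABARAPL1, an ATG8-family protein (18.1 ± 0.318 CPM with SAM, against 26.5 ± 0.603 CPM in controls, adjusted p = 0.00933), and ULK1, the kinase that starts autophagy (93.3 ± 10.7 CPM with SAM, against 129 ± 3.08 CPM in controls, adjusted p = 0.0251). TRIM63, the muscle ligase usually named with FBXO32, had no count in any library. Of 9 cell death targets 1 fell, the mitophagy receptor BNIP3L (log2 fold change -0.46, SE 0.10, adjusted p = 0.0214). Of 27 called genes that the rule on naming takes from all lists, 2 stayed past the threshold whichever library was omitted, CCNG2 and CDKN2B. Falls among the other FoxO targets numbered 2 to 3 without SAM 1 or any 1 control, and 6 without SAM 2 and control 1 together.

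**Figure D4:**
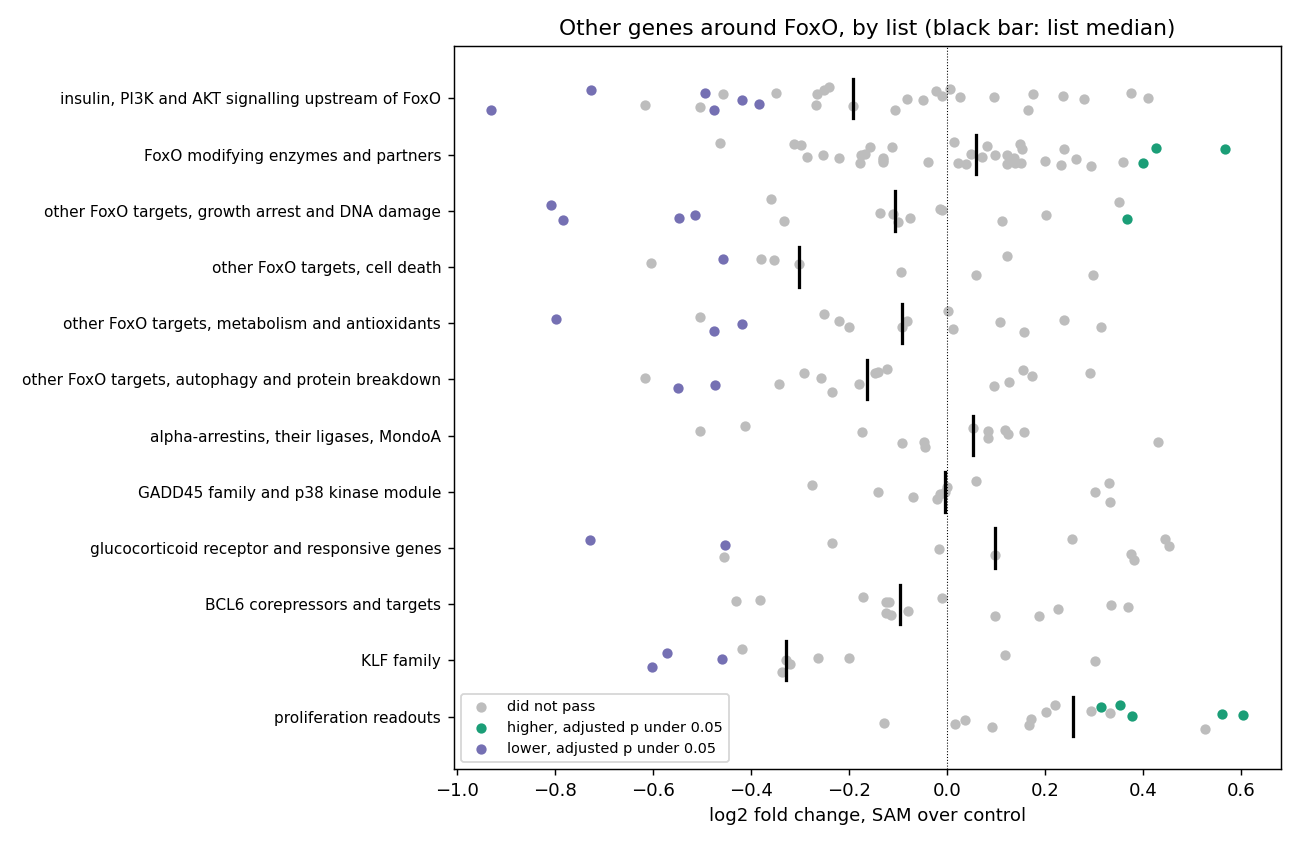
Log2 fold change of SAM over control (horizontal axis) for the tested genes of each list outside the set, as 1 point per gene, purple where lower and green where higher at an adjusted p under 0.05, grey where the test was not passed, with a black bar for the list median. The medians run from -0.33 in the KLF family to 0.26 among proliferation readouts.

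Upstream of FoxO, 6 of 29 tested genes of insulin, PI3K and AKT signalling fell and the rest did not pass (median log2 fold change -0.19), which is 20.7% against 5.24% of all tested genes. The count was 0 without SAM 1, control 1 or control 3, 1 without control 2, and 10 without SAM 2. INPP4B, a phosphatase of the PI3K lipid products, fell to 57.6 ± 14.8 CPM with SAM, against 110 ± 4.19 CPM in controls (log2 fold change -0.93, SE 0.16, adjusted p = 0.0114). The pseudokinases TRIB2, which represses FOXO3, and TRIB3, a stress-induced AKT inhibitor, fell by 0.49 and 0.73 on the log2 scale (adjusted p = 0.0129 and 0.0217). The remaining falls were INSR and TRIB1, which also count among FoxO targets, and PIK3R3, a regulatory subunit of PI3K (log2 fold change -0.38), which is named, after its value was seen, to complete the 6. AKT1 had 161 ± 4.13 CPM with SAM and 133 ± 3.35 CPM in controls (adjusted p = 0.067). AKT2 had a log2 fold change of 0.16 (SE 0.09, adjusted p = 0.229). Neither passed the test. For both, every SAM library lay above every control library, as in 17.9% of all tested genes. AKT1 stayed short of the threshold in 11 of 14 alternative fits and passed in the others. AKT2 stayed short of it in all 14.

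Among 38 enzymes and partners that modify FoxO proteins, 3 rose and the rest did not pass (median log2 fold change 0.06). That is 7.89%, near the 5.19% of all tested genes that were higher, and 0 rose without SAM 1 or any 1 control. The 3 were the 14-3-3 proteins SFN and YWHAH, of the family that holds phosphorylated FoxO in the cytoplasm, and FOXM1, a forkhead factor of proliferating cells that FOXO3 antagonises. The other 14-3-3 genes, named after their values were seen, did not pass. YWHAB, YWHAE, YWHAG and YWHAQ had log2 fold changes of 0.05, 0.15, 0.01 and 0.14. YWHAZ had -0.13, with 1724 CPM with SAM and 1888 CPM in controls. SFN rose to 225 ± 27.0 CPM with SAM, against 152 ± 3.54 CPM in controls (log2 fold change 0.57, SE 0.11, adjusted p = 0.0133). YWHAH rose to 131 ± 11.2 CPM with SAM, against 97.3 ± 0.612 CPM in controls (adjusted p = 0.0264), and FOXM1 to 159 ± 4.58 CPM with SAM, against 121 ± 4.68 CPM in controls (adjusted p = 0.024). PRMT1, which uses SAM to methylate FOXO1 next to an AKT site, had 407 ± 44.1 CPM with SAM and 345 ± 20.6 CPM in controls and did not pass (adjusted p = 0.156). Of 16 proliferation readouts 5 rose and the rest did not pass (median log2 fold change 0.26), which is 31.2% against 5.19% of all tested genes. The 5 were E2F1, the S phase factor, with 93.5 ± 12.1 CPM with SAM and 63.5 ± 3.95 CPM in controls (log2 fold change 0.56, SE 0.12, adjusted p = 0.0191), MYBL2, CCNE1 and, named to complete the 5 after their values were seen, CCND3 and MYC. Without SAM 1 or any 1 control, 0 of the 16 rose in edgeR, and with library totals as scaling 2 did, CCNE1 being among those lost. MKI67, the proliferation marker, had 305 ± 80.1 CPM with SAM and 298 ± 32.8 CPM in controls, and did not pass (adjusted p = 0.91).

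Among relatives of the set, 3 of 11 tested KLF genes besides KLF9 fell, or 27.3% against 5.24% of all tested genes. They were KLF7, KLF12 and KLF4 (log2 fold changes -0.57, -0.60 and -0.46, adjusted p = 0.032, 0.0434 and 0.0472). The median of the 11 was -0.33, and in 8 of them every SAM library lay below every control library, against 18.8% of all tested genes. With 1 library left out, the falls numbered 0 (without SAM 1 or any 1 control) to 7 (without SAM 2). Of 11 tested genes, the glucocorticoid receptor gene and genes responsive to it, 2 fell, or 18.2% against 5.24% of all tested genes. They were ERRFI1, a feedback inhibitor of the EGF receptor (log2 fold change -0.73, SE 0.14, adjusted p = 0.0158), and TSC22D3, known as GILZ (log2 fold change -0.45, SE 0.12, adjusted p = 0.0369). In FKBP5, DUSP1, MT2A and PER1, named after their values were seen, every SAM library lay above every control library. Their log2 fold changes were 0.38, 0.44, 0.45 and 0.25, and none passed. In 4 other genes of the list every SAM library lay below every control library. Over all tested genes, 17.9% had SAM above control without overlap and 18.8% SAM below, so nothing is read from these counts. The list median was 0.10. That median was -0.08 without control 1, -0.0027 without SAM 1 and -0.01 without SAM 2 and control 1 together. The receptor gene NR3C1 had 56.1 ± 15.0 CPM with SAM and 77.0 ± 1.8 CPM in controls (adjusted p = 0.109). Among 13 other alpha-arrestins, NEDD4-family ligases and MondoA regulators 0 passed in edgeR, 3 had an unadjusted p under 0.05 and DESeq2 called 1, with ARRDC1 at 0.12 (SE 0.10), ARRDC2 at -0.17 (SE 0.09) and MLXIP, which encodes MondoA, at 0.12 (SE 0.14) on the log2 fold change scale. In 11 genes of the GADD45 family and the p38 kinase module, and in 14 BCL6 corepressors and targets, edgeR likewise called 0, with 3 unadjusted p under 0.05 and 1 DESeq2 call in each. Their median log2 fold changes were -0.004 and -0.10. Without SAM 2, edgeR called 2 genes higher and 1 lower in the GADD45 and p38 list, and 1 lower in the BCL6 list. The same fit called 1 higher and 1 lower in the alpha-arrestin list. Over all genes, that fit called 1661 higher and 1572 lower of 15896 tested, and DESeq2 called 1031 higher and 921 lower of 15312. The share of all genes with an unadjusted p under 0.05 is not given here. Nothing is read from the counts in these 3 lists.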

How the data were processed

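RNA was sequenced from 3 SAM-treated and 3 control libraries of PC-3 cells. The deposited table holds whole-number read counts per Ensembl gene, and the submitters listed, without roles, HTSeq 0.6.1, STAR 2.4, DESeq2 1.8, SAMtools 0.1.19, CASAVA 1.8.2 and FastQC 0.10.0 among their tools. Whether counting used the strand was not stated. The submitters' notes name hg19, but the positions match GRCh38, as 99.8% of 51488 shared gene IDs overlap their GENCODE position. The study's text and the labels differ in the SAM dose, and the labels were followed. A deposited table of counts scaled by 1 factor per library was not used.

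Counts were filtered (filterByExpr), scaled (TMM) and tested with edgeR 4.0.16 (glmQLFit and glmQLFTest, two-sided, R 4.3.3). SEs were obtained as the size of the log2 fold change over the root of its F statistic. Of 57396 genes 15312 were tested. Alternatives used DESeq2 1.42.0, limma 3.58.1 (voom), other scalings and filters, a replicate block and left-out libraries. On simulated data (15126 genes) edgeR recovered 43.3%, 79.1% and 98.5% of genes changed 1.5-, 2- and 4-fold, and called 13 unchanged genes. The simulated libraries were drawn independently, without the likeness between SAM 2 and control 1. Recovery in the real libraries may therefore differ. A floor of 3 counts equals 0.103 to 0.320 CPM. No pair of libraries of the same group agreed within counting noise (chi-square per degree of freedom 4.98 or more).

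The 10 genes and all lists were chosen with earlier results of these data known. Named genes were the set, up to 3 genes per list and direction by smallest p among those past the threshold, 16 genes by name (some are not reported here) and the 5 genes most like FOXO1 among those averaging 2 or more in log2 CPM. Promoters came from RefSeq (250 bases before to 50 after a start), and lengths per kb from the longest GENCODE transcript.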

Additional observations from a re-analysis of the deposited data

How the results depend on the processing

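Every gene of the set except FOXO1 had a log2 fold change below 0 in all 14 alternative fits, and FOXO1 in 5 of 14. The calls depended on single libraries: with 1 library left out, 61 (without control 3) to 1661 (without SAM 2) genes were higher and 78 to 1572 lower, 0 to 4 genes of the set were lower, and 0 to 5 of the other FoxO targets were higher and 2 to 13 lower. The cause was not tested. Without SAM 2 and control 1 together 446 genes were higher and 508 lower, 6 of them other FoxO targets. Without a filter on low counts 1402 genes were higher and 1341 lower, with 2 other FoxO targets higher. At an adjusted p under 0.01, 126 were higher and 127 lower. When TMM was dropped in favour of library totals, 608 genes were higher and 961 lower, and 0 other FoxO targets were higher, PLK1 no longer passing. The replicate numbers did not pair the libraries (correlation of deviations across genes -0.26, -0.63 and 0.24 for numbers 1 to 3). Across numbers, the correlation was 0.70 between SAM 2 and control 1 and 0.46 between SAM 3 and control 2. A block on replicate numbers does not follow this likeness. With the replicate block 440 genes were higher and 588 lower, the 4 calls of the set were kept, 0 other FoxO targets were higher and 9 lower. Of the 27 named calls outside the set, 10 were lost with the block (FOXM1, YWHAH, PLK1, TRIB1, TSC22D3, KLF4, MYBL2, CCNE1, CDH1 and TMPRSS2). Between 9379258 and 28995160 counts per library, depth limits KLF9 and PIK3IP1 most.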
